A study of Mus musculus with 2 samples.

Results

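Satellite glial cells (SGCs) were examined here through 9 genes for support of sensory neurons and buffering of their surroundings, Fabp7, Apoe, Kcnj10, Kcnj16, Gja1, Glul, Slc1a3, Ednrb and Gfap, chosen by name from the 39098 gene symbols of the deposited files. SGCs were taken as the cells with at least 3 unique molecular identifiers (UMIs) of Fabp7 and with at least 1% of their UMIs from Apoe. Male C57BL/6 mice, 5 to 8 weeks of age, gave right trigeminal ganglia (TGs), which were dissociated with papain 7 days after 20 µL had been injected into the right vibrissal pad. The control group received saline and the CFA group received complete Freund's adjuvant (CFA), an inflammatory agent, mixed with saline. The labels call the control untreated, and the number of mice pooled into a library is not stated. No transgene, deletion or cell sort is named for either group, and each condition has 1 BD Rhapsody whole transcriptome library, so no difference between the libraries has a replicate check and no p-value is given.

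SGCs wrap the cell bodies of sensory neurons. They take up the potassium that firing neurons release, through inwardly rectifying channels built from Kir4.1 (Kcnj10) and Kir5.1 (Kcnj16), and pass it between cells through gap junctions such as those of connexin 43 (Gja1). The transporter GLAST (Slc1a3) clears glutamate and glutamine synthetase (Glul) turns it into glutamine. Endothelin receptor B (Ednrb) receives endothelins, Fabp7 and Apoe carry fatty acids and lipoproteins, and Gfap, an intermediate filament protein of astrocytes, is widely used as a sign of activated SGCs.

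The gate took 1089 of the 6695 kept control cells, 16.3% [15.4%, 17.2%], and 393 of the 3661 kept CFA cells, 10.7% [9.75%, 11.8%]. Values in square brackets are the limits of exact 95% intervals, which cover counting error only. The gated cells had median depths of 2072 (control) and 1855 UMIs (CFA). When all cells were clustered without the 9 genes, 94.3% of the gated control cells and 97.2% of the gated CFA cells fell into clusters named SGCs from 9 markers (Fabp7 and Apoe among them). Of the cells of these clusters, 71 of 1098 in the control and 60 of 442 in the CFA library lay outside the gate. The gate thus took a smaller part of them in the CFA library, and the shares of gated cells are not compared as cell numbers. The presence of counts says little here, as all 9 neuron and all 10 myelinating Schwann markers had counts in gated cells of both libraries. All 9 SGC markers had counts there too, Fabp7 and Apoe by the rule of the gate. The 7 that the gate did not use summed to 14607 counts per 1000000 UMIs (CPM) in the control and 14166 CPM in the CFA library, against 5898 and 5883 CPM in a glial cluster high in Scn7a and 1603 and 1428 CPM in myelinating Schwann cells. Aldoc, a glycolytic enzyme, was at 945 and 805 CPM in gated cells and at 12.4 and 6.12 CPM in myelinating Schwann cells. Entpd2, an ecto-ATPase and marker of the same list, was lower in gated cells (116 and 133 CPM) than in that Scn7a-high cluster (392 and 481 CPM).

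Fabp7 and Apoe define the gate, so their levels are a description of it. The median gated cell held 16 (control) and 11 (CFA) Fabp7 UMIs, and Apoe made up 4.04% and 3.57% of its UMIs. Just inside the limits lay 29 control and 25 CFA cells with 3 Fabp7 UMIs, and just outside lay 29 and 26 cells with 2 Fabp7 UMIs and enough Apoe. Cells with at least 3 Fabp7 UMIs and too little Apoe numbered 61 (control) and 18 (CFA), and 21 and 5 of them lay in neuron clusters, with a median depth of 44575 and 48755 UMIs.

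The gated cells were set against cells of other clusters. Myelinating Schwann cells, which insulate axons, numbered 2293 (control) and 1354 (CFA), at median depths of 1075 and 879.5 UMIs. A further glial cluster, with 604 control and 237 CFA cells, had its highest marker score for non-myelinating Schwann cells, with Scn7a at 3751 and 5482 CPM against 30.9 and 51.4 CPM in gated cells. It was left unnamed, as "Scn7a-high glia", because its leading genes held the SGC marker Cdh19 and no marker of its own list. A smaller unnamed cluster, "Itih5-positive glia", held 128 control and 56 CFA cells outside the gate, and 37 control and 4 CFA gated cells. Its highest marker score was that for SGCs, with 8 of the 9 markers found, but none of them was among its 10 leading genes.

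In GENCODE M21, build GRCm38, all 9 genes are protein coding. Kcnj10 lies at chr1:172341210-172374085, Kcnj16 at chr11:110968033-111027968, Gja1 at chr10:56377330-56402513, Glul at chr1:153899944-153909723, Slc1a3 at chr15:8634124-8710764, Ednrb at chr14:103814625-103844402, Gfap at chr11:102887336-102900912, Fabp7 at chr10:57784881-57788450 and Apoe at chr7:19696109-19699188. RefSeq (GRCm38.p6) gives 14 start sites for these genes. The 250 bases before the first listed start are shown for 4 of the 7 genes that the gate did not use, those with the highest ratios of SGCs over myelinating Schwann cells in the control library, with each CG pair in capitals. They lie at chr1:172340960-172341209 (+ strand) for Kcnj10, chr11:110967783-110968032 (+ strand) for Kcnj16, chr10:56377050-56377299 (+ strand) for Gja1 and chr15:8710808-8711057 (- strand) for Slc1a3.
Kcnj10: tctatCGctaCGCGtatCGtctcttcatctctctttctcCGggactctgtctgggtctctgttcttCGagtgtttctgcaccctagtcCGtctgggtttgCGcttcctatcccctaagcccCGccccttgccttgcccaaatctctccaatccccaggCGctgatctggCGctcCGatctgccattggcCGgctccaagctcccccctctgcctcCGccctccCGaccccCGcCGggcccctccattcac
Kcnj16: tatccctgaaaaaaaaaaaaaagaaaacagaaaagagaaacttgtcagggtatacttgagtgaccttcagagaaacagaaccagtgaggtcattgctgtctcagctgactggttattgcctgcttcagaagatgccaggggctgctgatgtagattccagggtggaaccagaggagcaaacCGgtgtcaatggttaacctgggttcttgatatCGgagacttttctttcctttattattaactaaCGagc
Gja1: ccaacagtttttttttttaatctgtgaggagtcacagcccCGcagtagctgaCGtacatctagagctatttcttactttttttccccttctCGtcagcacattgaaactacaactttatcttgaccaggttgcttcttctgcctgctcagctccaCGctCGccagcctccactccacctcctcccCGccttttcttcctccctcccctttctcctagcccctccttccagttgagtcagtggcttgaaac
Slc1a3: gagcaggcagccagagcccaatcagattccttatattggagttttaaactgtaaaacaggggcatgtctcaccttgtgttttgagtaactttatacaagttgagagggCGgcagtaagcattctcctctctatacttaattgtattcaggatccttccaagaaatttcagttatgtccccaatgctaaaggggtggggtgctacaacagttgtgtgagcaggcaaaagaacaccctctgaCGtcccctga
The window of Kcnj10 held 17 CG pairs and 62% G or C bases, whereas that of Kcnj16 held 3 pairs and 42.8%, that of Gja1 6 pairs and 50%, and that of Slc1a3 2 pairs and 44.8%. The median over 32851 mouse windows of this length was 6 pairs and 52.4%. The letters ACAAAG, a core that SOX factors can bind, were searched on both strands, with no overlap counted against another motif. They stood in 1 of the 14 windows (Apoe) and in 16.5% of all windows. TATAAA stood in 3 of the 14 windows (Apoe, Kcnj16 and Slc1a3) and in 12.4% of all windows, on either strand. The Kcnj16 match lay before another start, at chr11:111019335-111019584, and the Kcnj16 window printed above did not hold it. These matches only describe the letters.

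Of the members that the gate did not use, Kcnj10, Kcnj16, Gja1, Slc1a3 and Ednrb were all far higher in gated SGCs than in myelinating Schwann cells in both libraries, Glul was close to the Schwann level in the control, and Gfap was near 0 in both cell types. Counting members with at least 20 UMIs over both cell types, 5 of 6 were at least 2-fold higher in SGCs in the control library, where 17.0% of 11248 genes were, and 5 of 6 in the CFA library, where 16.8% of 9128 genes were. None of the 6 was at least 2-fold lower, against 13.1% and 15.5% of genes. Some members reached the minimum only through SGCs. In the control these were Kcnj16 and Gja1, with 1 and 18 UMIs in Schwann cells. In the CFA library they were Kcnj16, Gja1 and Slc1a3, with 0, 2 and 12 UMIs in Schwann cells. Gfap did not reach it, so the counts are a description only. Differences are given as the log2 ratio of CPM, with its interval. Types of 1 library are not replicates, so these ratios have no test.

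**Figure D1:**
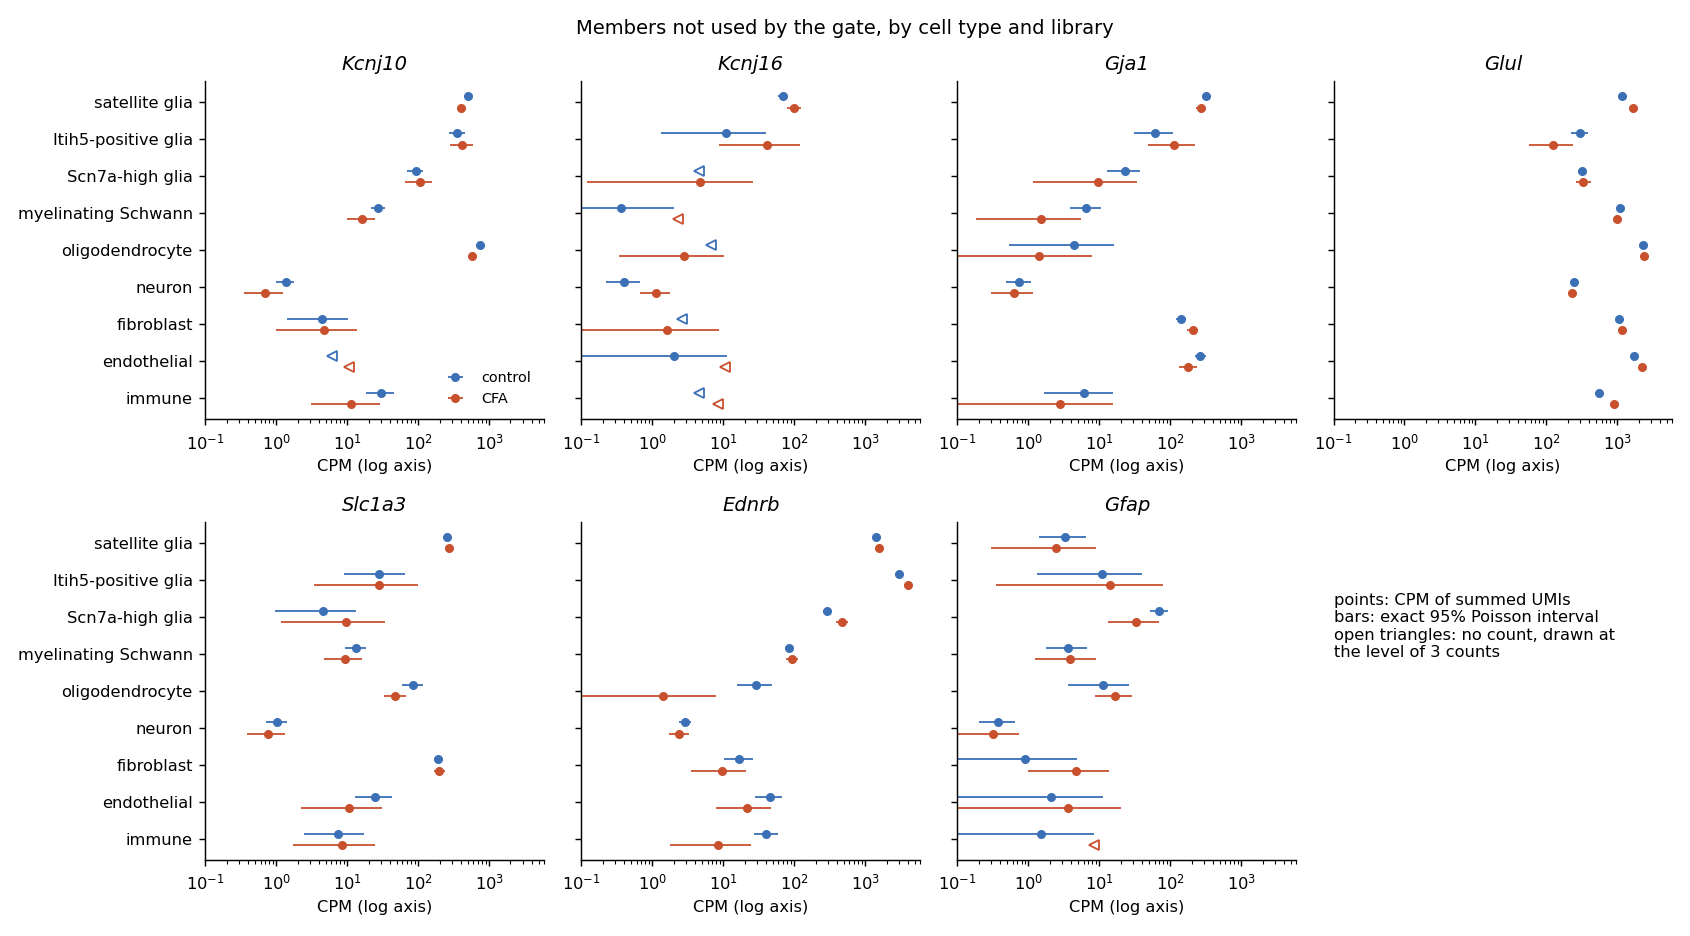
Levels of the 7 members not used by the gate, in CPM on a log axis, for 9 cell types and both libraries, with exact 95% Poisson intervals drawn down to the left edge of the axis. Kcnj16 lay at 68.7 and 99.1 CPM in satellite glia and lower in the other types shown. Open triangles mark the level of 3 UMIs where none was found, Glul lay above 100 CPM in every type shown, and Gfap in the control library was highest in the Scn7a-high glia.

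Kcnj10 was found at 511 CPM [484, 540] from 1258 UMIs in control SGCs and at 408 CPM [365, 454] from 333 UMIs in CFA SGCs. Myelinating Schwann cells had 27.4 CPM [21.6, 34.4] and 16.1 CPM [9.94, 24.5], and the log2 ratio of SGCs over them was 4.22 [3.88, 4.58] among control and 4.67 [4.03, 5.38] among CFA cells. Immune cells, at 30.0 CPM [18.3, 46.3] and 11.3 CPM [3.08, 28.9], did not differ from these Schwann cells beyond counting error. Oligodendrocyte-like cells (OLCs), which carry the markers of the myelinating glia of the central nervous system, had more Kcnj10 than SGCs in both libraries, with 740 CPM [662, 823] and 571 CPM [517, 630]. In the order of levels, SGCs were second in the control. In the CFA library OLCs, Itih5-positive glia (419 CPM [283, 598]) and SGCs came in this order, and neighbours in it did not differ beyond counting error. Fibroblasts and neurons stayed under 5 CPM, and no UMI was found in endothelial cells.

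Kcnj16 was sparse, and most of its UMIs were in SGCs, with 169 UMIs or 68.7 CPM [58.7, 79.9] in the control and 81 UMIs or 99.1 CPM [78.7, 123] in the CFA library. Gated SGCs held 85.8% of all its UMIs in the kept control cells and 69.8% in the kept CFA cells, and neurons, at 0.40 and 1.13 CPM, held 7.11% and 15.5%. Myelinating Schwann cells had 1 UMI in the control library, a 188-fold ratio with an interval from 33.3 to 7468, and none in the CFA library, where SGCs were at least 43.2-fold higher against a floor of 3 UMIs for the type. Among the types compared with SGCs, Itih5-positive glia came next, at 11.1 CPM [1.34, 40.0] from 2 UMIs and 41.9 CPM [8.64, 122] from 3 UMIs. In the CFA library that level did not differ from SGCs beyond counting error. OLCs, where Kcnj10 was highest, had 0 and 2 Kcnj16 UMIs.

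Gja1 stood at 315 CPM [293, 338] in control and 268 CPM [234, 306] in CFA SGCs. It was almost absent from myelinating Schwann cells, with 18 UMIs (6.58 CPM) and 2 UMIs (1.53 CPM), which gave log2 ratios of 5.58 [4.91, 6.34] and 7.45 [5.58, 10.5]. Cells outside the glia shared it. Endothelial cells had 265 CPM [221, 314], not apart from SGCs beyond counting error in the control, and 179 CPM [133, 236] in the CFA library. Fibroblasts had 143 CPM [122, 167] and 208 CPM [174, 247].

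Slc1a3 was at 252 CPM [233, 273] in control and at 270.5 CPM [236, 309] in CFA SGCs, the highest of all named types in both libraries. Fibroblasts followed with 193 CPM [169, 221] and 200 CPM [166, 238], and the log2 ratio of SGCs over fibroblasts was 0.39 [0.16, 0.61] and 0.44 [0.11, 0.76]. Myelinating Schwann cells had 13.2 and 9.17 CPM, a log2 ratio of 4.26 [3.78, 4.79] and 4.88 [4.05, 5.86]. In Scn7a-high glia it was found with 3 and 2 UMIs.

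Glul, in contrast to the other free members, was spread over every type. Control SGCs had 1157 CPM [1115, 1200] and control myelinating Schwann cells 1096 CPM [1057, 1136], a log2 ratio of 0.08 [0.0035, 0.15]. In the CFA library the values were 1688 CPM [1600, 1779] and 999.9 CPM [946, 1056], a log2 ratio of 0.76 [0.65, 0.87]. OLCs (2270 and 2364 CPM) and endothelial cells (1737 and 2224 CPM) were above SGCs in both libraries. Neurons had 250 and 228 CPM, and held 44.1% and 35.1% of all Glul UMIs.

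Ednrb reached 1440 CPM [1393, 1488] in control and 1574 CPM [1489, 1662] in CFA SGCs, against 85.2 and 93.3 CPM in myelinating Schwann cells, log2 ratios of 4.08 [3.89, 4.28] and 4.08 [3.81, 4.36]. Itih5-positive glia, whose highest marker score was also for SGCs, had 2992 CPM [2745, 3255] and 3966 CPM [3518, 4455], which put SGCs lower by a log2 ratio of -1.06 [-1.19, -0.92] and -1.33 [-1.52, -1.14]. Ednrb was left out of the clustering that drew this cluster, and its leading genes also held Itgb8, Col3a1, Col1a2 and Sox2. Scn7a-high glia came after SGCs, with 294 CPM [254, 339] and 472 CPM [383, 574].

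Against the Scn7a-high glia, 6 members with at least 20 UMIs were at least 2-fold higher in SGCs in both libraries, of 7 tested in the control, where 13.7% of 10331 genes were, and of 6 tested in the CFA library, where 16.5% of 7079 genes were. Kcnj16, Gja1 and Slc1a3 reached this minimum only through SGCs in both libraries, and Gfap in the control only through the Scn7a-high glia. These counts too are a description only. Among members with UMIs in both cell types, Slc1a3 had the greatest ratio in the control, log2 5.78 [4.23, 8.06], and Gja1 stood at 3.78 [3.04, 4.62], Kcnj10 at 2.48 [2.10, 2.88], Ednrb at 2.29 [2.08, 2.51] and Glul at 1.85 [1.65, 2.06]. Kcnj16 had no UMI in Scn7a-high glia of the control library, so SGCs were at least 14.95-fold higher by the same floor. Gfap was the member at least 2-fold lower in SGCs, in the control library, as were 17.2% of genes; with 9 UMIs it was not counted in the CFA library, where 16.8% of genes were lower.

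**Figure D2:**
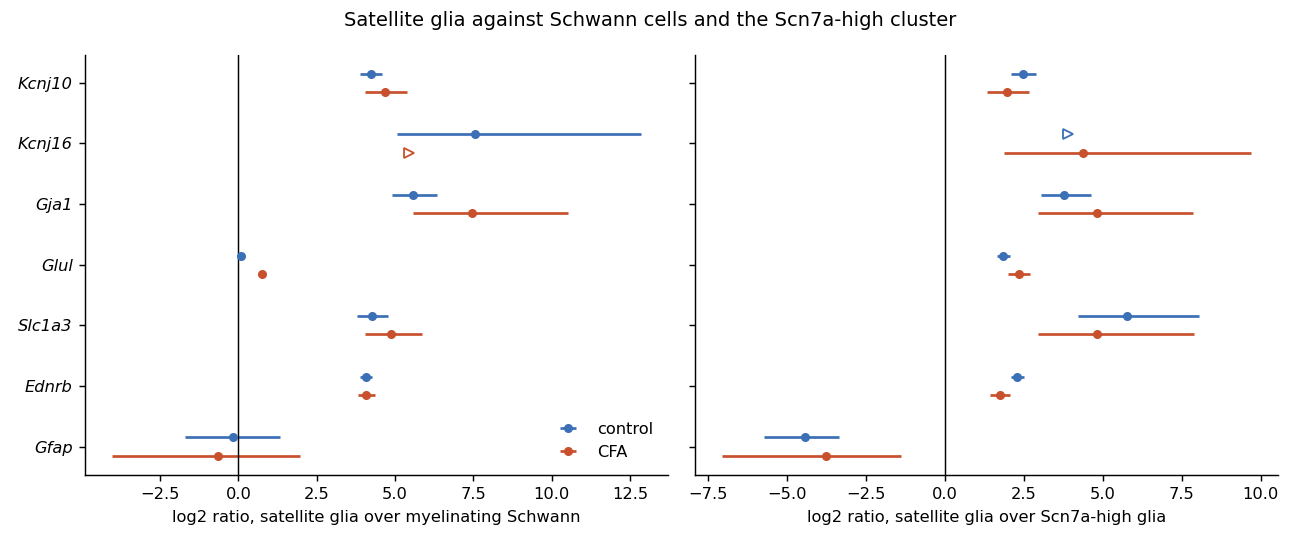
Log2 ratio of CPM in satellite glia over myelinating Schwann cells (left) and over Scn7a-high glia (right) for the 7 members not used by the gate, with exact 95% intervals; open triangles are lower bounds where the other type had no UMI. Kcnj10, Kcnj16, Gja1, Slc1a3 and Ednrb lie right of 0 in both panels, Glul lies at 0.08 against control Schwann cells, and Gfap lies at -4.44 against control Scn7a-high glia.

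Gfap was close to undetected in SGCs. The control library had 8 Gfap UMIs in 7 of 1089 gated cells, or 3.25 CPM [1.40, 6.41], and the CFA library had 2 UMIs in 2 of 393 gated cells, or 2.45 CPM [0.30, 8.84]. The shares of gated cells with a UMI, 0.643% [0.259%, 1.32%] and 0.509% [0.0617%, 1.83%], overlapped those of immune cells, which should lack Gfap and had 0.361% [0.00914%, 1.99%] in the control at a median depth of 2048 UMIs and 0 of 196 cells [0%, 1.86%] in the CFA library at 1632 UMIs, where a limit of 3 counts allows up to 1.53%. Erythroid cells, which should lack it too, had a Gfap UMI in 1 of 43 control cells, 2.33% [0.0589%, 12.3%], and in 3 of 86 CFA cells, 3.49% [0.725%, 9.86%], at median depths of 1039 and 1158 UMIs. A level of Gfap above background in SGCs was therefore not detectable at this depth in either library. Of the 8 control UMIs, 5 were in the 134 gated cells of an interferon-led cluster, or 12.7 CPM [4.14, 29.7]. That interval overlapped the one of control immune cells (0.038 to 8.36 CPM). The other gated control cells held 0.97 CPM once both interferon-led clusters were left out. The 71 control cells of SGC clusters outside the gate had a further 5 Gfap UMIs, or 50.3 CPM [16.3, 117], and the 60 such CFA cells had none. The interval of these control cells lay above that of immune cells and overlapped that of erythroid cells (0.494 to 109 CPM).

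Scn7a-high glia had more Gfap, with 46 UMIs in 21 control cells, or 70.5 CPM [51.6, 94.0], and 7 UMIs in 5 CFA cells, or 33.3 CPM [13.4, 68.7]. These levels were 21.7-fold and 13.6-fold above those of SGCs, with log2 ratios of SGCs over them of -4.44 [-5.73, -3.34] and -3.77 [-7.07, -1.37]. A single control cell held 10 of the 46 UMIs, and the other 20 cells held 36. The share of Scn7a-high cells with a Gfap UMI was 3.48% [2.16%, 5.27%] among control and 2.11% [0.688%, 4.85%] among CFA cells, although their median depth, 925 and 818 UMIs, was below that of SGCs. In the CFA library this share and level lay at or under those of erythroid cells (35.4 CPM [9.65, 90.7] from 4 UMIs). Immune cells had no Gfap UMI there (0 CPM [0, 10.4]), so the level intervals were apart, while those of the shares overlapped. The CFA level was thus above that of immune cells but not that of erythroid cells, and it is not read as above background in general. In the control library the level was above that of erythroid cells (19.5 CPM from 1 UMI), but not beyond counting error (log2 ratio 1.85 [-0.70, 7.19]). The intervals of the 2 shares overlapped there too. Control immune cells, fibroblasts and endothelial cells had 1 Gfap UMI each. Their level intervals (0.038 to 8.36, 0.022 to 4.92 and 0.052 to 11.4 CPM) lay below that of Scn7a-high glia. The interval of the immune share also lay below, while the level interval of mural cells (0.266 to 58.4 CPM) overlapped. The control level was thus above that of immune cells, fibroblasts and endothelial cells, but not apart from that of erythroid cells. Myelinating Schwann cells had 3.65 and 3.82 CPM, not apart from SGCs, and OLCs had 5 and 12 UMIs (11.1 and 16.8 CPM).

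**Figure D3:**
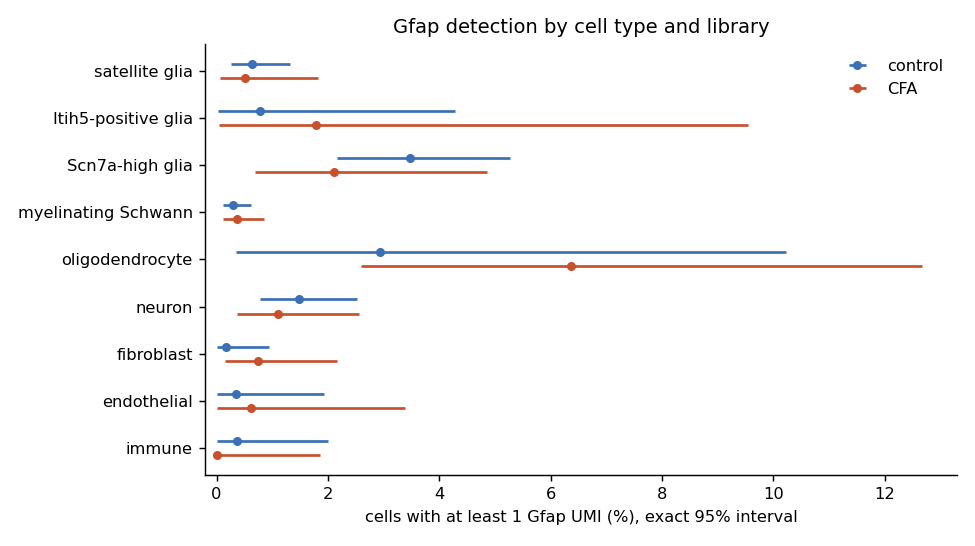
Percentage of cells with at least 1 Gfap UMI for 9 cell types and both libraries, with exact 95% intervals and unthinned depth. Satellite glia lie at 0.643% and 0.509% with intervals that overlap those of immune cells, and Scn7a-high glia lie at 3.48% and 2.11%. Erythroid cells are not drawn.

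In single SGCs, a Kcnj10 UMI was found in 57.4% of control and 46.6% of CFA gated cells, one of Gja1 in 42.4% and 37.4%, of Slc1a3 in 38.2% and 37.4%, of Ednrb in 84.4% and 84.0%, of Glul in 77.7% and 85.8%, and of Kcnj16 in 13.04% and 14.8%. In immune cells, the corresponding shares of Kcnj10 were 2.53% and 2.04% and those of Ednrb 4.33% and 1.53%, while Glul was found in 44.4% and 54.6%. With each cell thinned to 500 UMIs, Kcnj10 was found in 21.97% [19.5%, 24.5%] and 17.3% [13.7%, 21.4%] of SGCs and in 0.933% and 0.683% of myelinating Schwann cells, with 1 control SGC, 43 control and 37 CFA Schwann cells left out as too shallow. All 5 of Kcnj10, Gja1, Glul, Slc1a3 and Ednrb had a UMI in 133 control SGCs (12.2%) and 32 CFA SGCs (8.14%), and none of them in 32 and 9 cells. Of the cells with a Kcnj16 UMI, 90 of 142 in the control and 33 of 58 in the CFA library also had one of Kcnj10.

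The gated cells fell mainly into a pair of clusters without interferon genes among their leading genes and 1 interferon-led cluster. The lower-depth cluster held 490 control and 185 CFA cells (median 1489 and 1440 UMIs), the higher-depth cluster held 403 and 195 cells (median 2688 and 2558 UMIs), and the interferon-led cluster held 134 control and 2 CFA cells. The higher-depth cluster had more Kcnj10 (593 against 407 CPM), Gja1 (403 against 265 CPM), Glul (1365 against 1031 CPM) and Ednrb (1626 against 1346 CPM) than the lower-depth cluster in the control library. These 4 members kept that order in the CFA library, where the intervals of Kcnj10 (426 CPM [372, 485] against 367 CPM [298, 447]) and of Ednrb (1644 CPM [1537, 1758] against 1437 CPM [1296, 1588]) overlapped. Within the interferon-led cluster, Kcnj10 (581 CPM [508, 662]) lay at the level of the higher-depth cluster, while Gja1 (199 CPM [157, 248]), Glul (884 CPM [794, 983]) and Ednrb (1226 CPM [1119, 1341]) were lower than there. Slc1a3 was higher in the interferon-led cluster (308 CPM [256, 369]) than in the control higher-depth cluster (259 CPM [230, 290]), with overlapping intervals. Kcnj16 was at 53.5 CPM [33.1, 81.8] against 82.4 CPM [66.6, 101], with overlap too. Depth differs between these clusters, and its part in the differences was not tested.

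**Figure D4:**
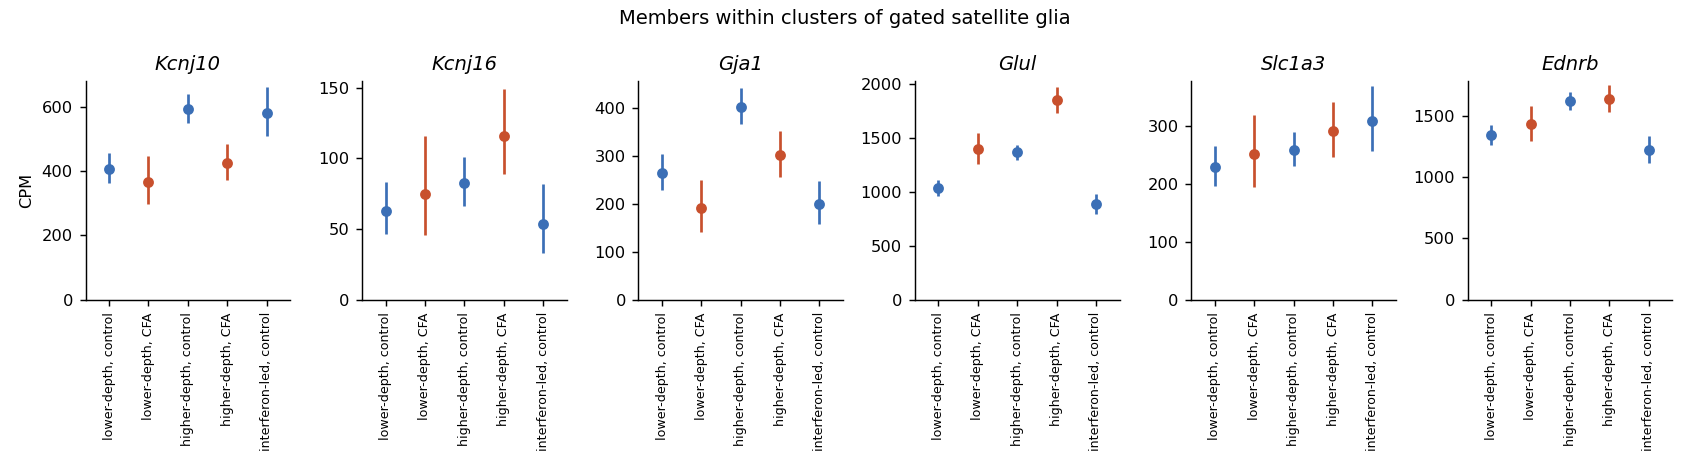
CPM of 6 members within the lower-depth, higher-depth and interferon-led clusters of gated satellite glia, for the control (blue) and CFA (orange) libraries, with exact 95% Poisson intervals and axes that start at 0. Glul is higher in the CFA library in both of the clusters that have cells of both libraries (1399 against 1031 CPM and 1850 against 1365 CPM).

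The libraries were then set side by side to ask how the members stood in SGCs after CFA. Glul was higher in the CFA library by a log2 ratio of 0.54 [0.45, 0.64], Kcnj16 by 0.53 [0.13, 0.92] and Ednrb by 0.13 [0.036, 0.22]. Kcnj10 was lower, at -0.33 [-0.51, -0.15], as was Gja1 at -0.23 [-0.45, -0.013], whereas the interval of Slc1a3, at 0.10 [-0.13, 0.32], held 0. None of these 6 members was 1.5-fold higher or lower, where 10.8% of 10246 genes were 1.5-fold higher and 11.9% were 1.5-fold lower. The intervals of Glul and Kcnj16 reached past 1.5-fold. Gfap, with 8 and 2 UMIs, had a ratio of -0.41 with an interval from -3.68 to 1.92, so that neither a rise nor a fall could be seen. Fabp7, at -0.45 [-0.49, -0.41], and Apoe, at -0.12, are the gate's own genes. With 1 library a condition, these ratios compare the libraries and not the conditions.

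Within the lower-depth cluster Glul stood at 1031 CPM [960, 1106] in the control and 1399 CPM [1261, 1548] in the CFA library, and within the higher-depth cluster at 1365 CPM [1298, 1435] and 1850 CPM [1735, 1970]. Other types did not share the direction throughout. Myelinating Schwann cells had a Glul ratio of -0.13 [-0.23, -0.038], endothelial cells of 0.36 [0.20, 0.51], OLCs of 0.06 [-0.054, 0.17] and immune cells of 0.73 [0.51, 0.95]. The lower Kcnj10 of CFA SGCs lay beside ratios of -0.37 [-0.58, -0.16] in OLCs and -0.77 [-1.54, -0.058] in myelinating Schwann cells. Kcnj10 in these Schwann cells (27.4 and 16.1 CPM) was not apart from immune cells (30.0 and 11.3 CPM). The Schwann ratio is therefore not read as a change in Schwann cells. In Scn7a-high and Itih5-positive glia Kcnj10 was at 0.19 and 0.24, with intervals that held 0. For Gja1, fibroblasts had 0.54 [0.20, 0.88] and endothelial cells -0.56 [-1.06, -0.082]. For Ednrb the Itih5-positive glia had 0.41 [0.19, 0.62] and the Scn7a-high glia 0.68 [0.32, 1.04].

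The libraries also differed in what else the gated cells held. Interferon-led clusters took 12.4% of gated control cells and 0.509% of gated CFA cells, and among myelinating Schwann cells an interferon-led cluster held 131 control and 3 CFA cells. Without the gated cells of these clusters, Glul was at 0.47 [0.37, 0.57], Kcnj16 at 0.48 [0.068, 0.88], Kcnj10 at -0.30 [-0.49, -0.12], Gja1 at -0.35 [-0.58, -0.13], and the interval of Ednrb, 0.09 [-0.0088, 0.18], then held 0. Of the erythroid markers, 5 of 5 had counts in gated cells of both libraries, with 779 CPM in the control and 2068 CPM in the CFA library. Of the immune markers, 9 of 10 (278 CPM, Cd3e at 0) had counts in control cells and 5 of 10 (13.5 CPM, with Ptprc, Lyz2, Cx3cr1, Csf1r and Cd3e at 0) in CFA cells. Neuron markers, 9 of 9 with counts in both libraries, summed to 1035 and 583 CPM. Mural markers summed to 86.6 CPM with 8 of 8 genes in control cells and to 26.9 CPM with 2 of 8 in CFA cells (Rgs5, Acta2, Myh11, Kcnj8, Abcc9 and Des at 0). Myelinating Schwann markers had counts for 10 of 10 genes in both, with 5136 and 4253 CPM. Their part in the differences of the members was not tested.

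**Figure D5:**
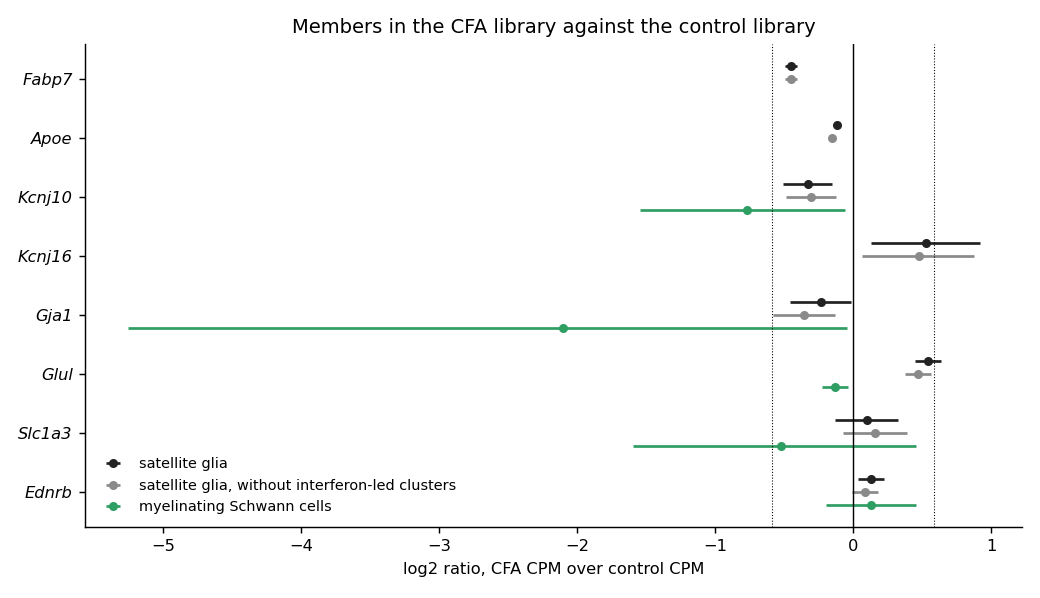
CFA over control, as log2 ratios of CPM, for 8 members in satellite glia, in satellite glia without the interferon-led clusters, and in myelinating Schwann cells for the members the gate did not use and that had counts in both libraries, with exact 95% intervals; dotted lines mark 1.5-fold. The points of Glul and Kcnj16 lie right of 0 and those of Kcnj10 and Gja1 left of 0 in satellite glia, all within the dotted lines. In all satellite glia the intervals of Glul and Kcnj16 reach past the right dotted line.

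Further genes of each pathway were taken from lists chosen by function, and some genes were named after their values were seen. Of 18 potassium and ion buffering genes, 14 had at least 20 UMIs in SGCs. Of these, 2 were at least 1.5-fold higher in the CFA library and 1 was lower, and the median log2 ratio was 0.12 against 0.005 over all 10246 genes, of which 10.8% were higher and 11.9% lower. Slc12a2, the sodium, potassium and chloride cotransporter NKCC1, stood at 667 CPM in the control and 1092 CPM in the CFA library (log2 0.71). Slc4a4, a sodium bicarbonate cotransporter, stood at 607 and 920 CPM (0.60), and it was also at 18.6 CPM in control myelinating Schwann cells and 19.9 CPM in control Scn7a-high glia. Atp1b2, a sodium pump subunit, stood at 894 and 1081 CPM in SGCs, above its level in myelinating Schwann cells (160 and 168 CPM). In Scn7a-high glia it was closer to SGCs, at 683 and 762 CPM.

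Among 14 glutamate and GABA genes with at least 20 UMIs, 3 were at least 1.5-fold higher in the CFA library, as were 10.8% of all genes, none was lower, against 11.9%, and the median was 0.06. Among them were Slc1a2 and Slc6a9, a glycine transporter gene with 14 and 7 UMIs, and at a minimum of 100 UMIs none was counted. Slc6a11, the GABA transporter GAT3, stood at 47.6 and 66.1 CPM in SGCs and at 0.73 and 0.76 CPM in myelinating Schwann cells. Slc1a2, the main glutamate transporter of astrocytes, had 22 UMIs (8.94 CPM) in control SGCs and 19 UMIs (23.3 CPM) in CFA SGCs.

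In the gap junction list, 3 of 7 genes with at least 20 UMIs were at least 1.5-fold lower in the CFA library, against 11.9% of all genes, and none was higher, against 10.8%, with a median of -0.23, which is the value of Gja1 itself. The lower genes were Gjb1, Gjb2 and Panx1, with 4, 7 and 9 UMIs in the CFA library, and their intervals held 0. Panx1, a pannexin channel, stood at 19.1 and 11.0 CPM (log2 -0.79 [-2.01, 0.25]). Gjc3, connexin 29, was level at 284 and 281 CPM, and it was higher in myelinating Schwann cells (829 and 1036 CPM), as was Gjb1, connexin 32 (167 and 138 CPM against 9.35 and 4.90 CPM in SGCs).

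Lipid carriers and sterol synthesis had 29 genes with at least 20 UMIs, Fabp7 and Apoe of the gate among them. Of these 1 was at least 1.5-fold higher and 1 was lower in the CFA library, against 10.8% and 11.9% of all genes (median 0.05). Apod, a lipocalin, was the lower gene, at 793 and 340.2 CPM (log2 -1.22 [-1.41, -1.04]). Insig1, a sensor of sterol synthesis, was the higher gene, at 197 and 296 CPM (0.59 [0.36, 0.81]). In the endothelin list the 2 genes with enough UMIs were Ednrb and Ece1, the endothelin converting enzyme, at 276 and 291 CPM, while Ednra had 13 UMIs and the ligand genes Edn1, Edn2 and Edn3 had 3, 1 and 4 UMIs in control SGCs.

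The glial activation list, which includes Gfap, had 15 genes with at least 20 UMIs, 2 at least 1.5-fold lower and none higher in the CFA library (11.9% and 10.8% of all genes), with a median of 0.005, the same as over all genes. Serpina3n, a serine protease inhibitor of reactive astrocytes, was the lowest at 146 and 52.6 CPM (log2 -1.47 [-1.96, -1.01]), and without the interferon-led clusters it was at -0.29 [-0.83, 0.22]. Ccl2, a chemokine, was at 31.3 and 15.9 CPM (-0.98 [-1.95, -0.12]), and without these clusters at -0.68 [-1.68, 0.21]. C4b, a complement component, turned from -0.55 [-1.03, -0.10] to 0.60 [0.06, 1.13] without them. C4b stood at 87.8 and 60.0 CPM in SGCs and at 881 and 653 CPM in Scn7a-high glia. Serpina3n was higher in those glia too, at 628 and 238 CPM. Vim, the intermediate filament protein vimentin, was at 5365 and 5778 CPM, in contrast to the near absence of Gfap, and S100b was at 775 and 940 CPM (0.28 [0.16, 0.40]). Nes had the highest ratio among list genes with at least 50 UMIs, at 65.0 and 89.3 CPM (0.46 [0.038, 0.87]). In the interferon list, 21 of 22 genes were at least 1.5-fold lower in the CFA library, against 11.9% of all genes, with a median of -1.71. Without the interferon-led clusters 8 of 18 were, against 11.4% of 9932 genes, with a median of -0.55, and none was higher, against 9.92% of genes.

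Markers of central astrocytes gave a further description of the gated cells. Of 8 genes, 7 had counts in control and 6 in CFA cells, summing to 278 CPM [257, 299] and 285 CPM [250, 324], against 12.4 and 6.12 CPM in myelinating Schwann cells. Aqp4, the water channel of astrocyte endfeet, was at 57.7 and 113 CPM, and Mlc1, a membrane protein of the same endfeet, was at 116 and 83.2 CPM. Fgfr3, Cldn10 and Slc39a12 were at or near 0.

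The genes whose levels ran most like each member were ranked by Pearson's r of log2(CPM + 1) over 22 points, 11 cell types in each of 2 libraries. The points share libraries and depth, so r is given as a description. Kcnj10 was followed most closely by Galnt6 (r = 0.94) and Cdh20 (r = 0.92), Kcnj16 by Rlbp1 (r = 0.92) and Elovl2 (r = 0.90), Gja1 by Alpl (r = 0.91) and Ramp2 (r = 0.87), and Slc1a3 by Ergic3 (r = 0.86) and Rassf2 (r = 0.82). For Ednrb the first were Cep85l (r = 0.86) and the SGC marker Ttyh1 (r = 0.85), for Glul Tgfa (r = 0.79) and Rhpn2 (r = 0.76), and for Gfap Itgb4 (r = 0.83) and Ybx3 (r = 0.79). Fabp7 ran with Acsbg1 (r = 0.92) and Apoe with Pdlim4 (r = 0.90). The gate selected SGCs by Fabp7 and Apoe and kept such cells out of the other types. The r values of this pair thus depend on the gate.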

How the data were processed

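Single cells of 1 control and 1 CFA trigeminal ganglion library were measured on BD Rhapsody. The authors deposited whole-number UMI counts per gene and cell, and the submitters' processing notes name fastp and build GRCm38; the counting tool's version is not given in the sources used here. The deposited files held 7298 cells with 48916096 UMIs and 4080 cells with 22096268 UMIs. Cells with at least 150 genes and at most 25% mitochondrial UMIs were kept (6695 and 3661, median 1448 and 1192 UMIs). The libraries shared 27 cell numbers, 0 of them gated in both. Doublets were kept, with no caller run.

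Counts were log-normalized, and 20 principal components of 2000 variable genes, without the 9 members and the pathway genes, were clustered (20 neighbours, Leiden, resolution 1, seed 1, 29 clusters) with Python 3.11.15, numpy 2.4.6, scipy 1.17.1, scikit-learn 1.9.0, leidenalg 0.10.2 and igraph 0.11.9. Clusters were named from marker lists, by a scoring rule set after the data were seen. Other rebuilt names could shift the values of the types. Levels are summed UMIs of a type per 1000000 of its UMIs. The 95% intervals were exact Poisson for levels, Clopper-Pearson for shares and, for ratios, binomial conditional on the summed UMIs, and they cover counting error only. The interval functions were tested on simulated data. A type with no UMI of a gene was given a floor of 3 UMIs. Genes entered a count with at least 20 UMIs in the cells compared, and a call meant 2-fold between types or 1.5-fold between libraries. With 1 library a condition there was no test. Named were the 9 members, the genes most alike to each by Pearson's r, and from each pathway list genes among the 3 highest and 3 lowest ratios with at least 50 UMIs, plus list genes with a role stated in the text, chosen after their values were seen. Members and lists were chosen with earlier results of these data known. Alternatives changed the gate, cell filter, totals, depth, cell weights, clustering, count minimum and centring. Values of some genes are not reported here.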

Additional observations from a re-analysis of the deposited data

Results flagged for a closer look

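Glul, which encodes glutamine synthetase, was higher in the CFA than in the control library in satellite glia (log2 ratio 0.54, 0.45 to 0.64) and lower in myelinating Schwann cells (-0.13, -0.23 to -0.038). The 2 cell types thus lay in opposite directions, each with 1 library a condition, and the difference between them was not tested. The rise was not particular to satellite glia, with 0.73 [0.51, 0.95] in immune and 0.36 [0.20, 0.51] in endothelial cells. Fibroblasts were slightly higher too, while Itih5-positive glia (-1.22 [-2.43, -0.19]), neurons and erythroid cells were lower.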

How the results depend on the processing

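No paired analysis was possible because each condition has 1 library. Of the log2 ratios of satellite glia over myelinating Schwann cells and over Scn7a-high glia recomputed under the alternatives, 326 stayed within the reported interval and 20 moved out of it, and the 4 changes of sign were all of Gfap. Ratios over the other types are not among them. Of the CFA over control ratios in satellite glia, 88 stayed within the interval and 1 moved out, with 4 changes of sign, 3 of them of Gfap and 1 of Slc1a3 (-0.02). No member's ratio with an interval off 0 turned direction, whereas the activation gene C4b turned from -0.55 to 0.60 without the interferon-led clusters. Of the members' levels in satellite glia, 153 stayed within the interval and 63 moved out. Over these alternatives Glul ranged from 0.42 to 0.56, Kcnj16 from 0.32 to 0.72, Kcnj10 from -0.37 to -0.28, Gja1 from -0.35 to -0.14, and Gfap from -1.15 to 1.35. In cells with at least 2000 UMIs, 1 member (Kcnj16) was 1.5-fold higher in the CFA library, against 0. With at least 100 UMIs, 0 gap junction genes were lower (against 3), 0 glutamate and GABA genes higher (against 3), 0 potassium genes lower (against 1) and 1 activation gene lower (against 2). Without the interferon-led clusters, 1 activation gene was lower and 1 higher (against 2 and 0), and 8 interferon genes were lower (against 21). Centred on the median gene, 0 lipid genes were higher (against 1). Depth limits Gfap and Kcnj16 most, with 10 and 250 UMIs in all gated cells.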

Other observations

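An unnamed cluster led by Olig1, Cspg5, Vcan and Pdgfra, genes known from oligodendrocyte precursors, held 12 control and 17 CFA cells outside the gate. It had 10 Kcnj10 UMIs and 4 Kcnj16 UMIs in the control library and 7 and 1 UMIs in the CFA library, and no Gfap UMI in either. Its Kcnj16 level was 94.4 CPM [25.7, 242] in the control library, where satellite glia had 68.7 CPM. In the CFA library it was 19.7 CPM [0.50, 110], where satellite glia had 99.1 CPM. Both intervals held the level of satellite glia.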
